A study of Mus musculus with 18 samples.

Results

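Cdx1, Cdx2, Cdx4, Hoxb1, Hoxb2, Hoxb4, Hoxd1 and Hoxa3 were followed through 18 cultures of mouse embryonic stem (ES) cells. They were the rows of the deposited count table whose Ensembl identifiers map to these symbols in the mouse assembly GRCm38, 8 of 49671 genes. In the gastrulating embryo, canonical Wnt signals from the primitive streak switch on the caudal-type homeobox genes of the Cdx family in the posterior epiblast. Cdx proteins bind in the Hox clusters and, together with Wnt and Fgf signals, raise the expression of the trunk and tail Hox genes there. Genes at the 3′ ends of the clusters, such as Hoxb1 and Hoxd1, are switched on first, and they pattern the hindbrain and the neighbouring mesoderm.

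The study asked how Wnt signalling and its target Esrrb act on the epithelial organisation of pluripotent cells, and poly(A) RNA was sequenced from 6 groups of 3 cultures. Wild-type E14 ES cells, given in the labels as strain 12910la at passage 20, were kept for 48 h in N2B27 medium inside growth factor depleted Matrigel. The medium held the solvent DMSO alone, CHIR99021 at 3 µM (CH), CHIR99021 at 3 µM with PD0325901 at 0.4 µM (2i), or Fgf2 at 12 ng/ml with Activin A at 20 ng/ml (FGF2_Activin). CHIR99021 inhibits the kinase Gsk3 and so stabilises β-catenin, and PD0325901 inhibits the kinase Mek in the Fgf/Erk pathway. Esrrb fl/fl ES cells, from the strain labelled Acr-EGFP transgenic mice and at passage 25, carry the tamoxifen-inducible Cre recombinase MerCreMer. They were grown for 24 h in Matrigel with CHIR99021 at 3 µM, either after 1 day with 4-hydroxytamoxifen (Esrrb_4OHT) or without it (Esrrb_NT). Both Esrrb groups therefore received CHIR99021, and no culture of that line lacked it. Only Esrrb_4OHT received 4-hydroxytamoxifen, so effects of the agent and of the deletion cannot be told apart. Before the 3D culture all lines had been maintained in medium with both inhibitors and Lif, so even the DMSO cells had been exposed to CHIR99021 up to then. Each genotype was represented by a single line, and between CH and Esrrb_NT the line, the passage and the time in culture differ together and cannot be told apart.

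Between 19915222 and 37158661 reads per library were counted on genes. Levels are given as counts and in CPM, the counts scaled by library total and TMM factor, with the SD over 3 cultures. For the labelled cell type, 8 ES cell genes were read (Pou5f1, Sox2, Nanog, Esrrb, Zfp42, Klf4, Tdgf1 and Utf1). Each had at least 10 counts in every library, which shows detection only and does not tell states of pluripotent cells apart. Summed over these genes, the level was 1519 ± 51.4 CPM in DMSO, the lowest of the 6 groups, and 3435 ± 63.2 CPM in 2i, the highest (SD, n = 3 each). Utf1 was the most abundant of them in DMSO and Pou5f1 in the other 5 groups. Over all 16413 genes tested in the E14 cultures, 7.51% were called higher and 10.2% lower in CH against DMSO, 8.37% and 14% in 2i against DMSO, and 9.13% and 14.4% in 2i against FGF2_Activin. The shares were 0.317% higher and 1.67% lower in 2i against CH, 0.902% and 0.347% in FGF2_Activin against DMSO, and 12.8% and 3.87% in Esrrb_4OHT against Esrrb_NT, and each count from a gene list stands beside them. Against DMSO, 5 of the 8 ES cell genes were called higher and 1 lower both in CH (median log2 fold change 2.61) and in 2i (median 3.05), and the same numbers were called in 2i against FGF2_Activin (median 3.11). By edgeR, 0 were called in 2i against CH (median 0.44) and 0 in FGF2_Activin against DMSO (median -0.04), and after deletion of Esrrb 0 were higher and 2, Sox2 and Klf4, lower (median -0.91). Nanog had 2543, 189 and 72 counts in DMSO replicates 1 to 3, so replicate 1 stood far above the others. The replicate 1 libraries stood apart in every group. Beyond sampling noise, the chi-square per gene between replicate 1 and the others lay between 11.8 and 65.9, and that between replicates 2 and 3 lay between 1.47 and 8.57. For the 8 genes, the number called is therefore given with these libraries and, from an alternative chosen after seeing the data, without them. So are most of their changes. The tests of the gene lists were repeated neither without these libraries nor with the replicate number in the model. The replicates are known as such from their labels alone, and the p-values measure the spread between these samples. In bulk RNA, fewer cells expressing a gene and less RNA per cell cannot be told apart.

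The comparison of CH with DMSO asks what Gsk3 inhibition alone does. Calls required an adjusted p below 0.01 (edgeR quasi-likelihood test, Benjamini-Hochberg adjustment) and a log2 fold change beyond 1 in either direction. Of the 8 genes, 6 passed the filter on low counts in the E14 cultures, and 5 of these were called higher in CH, where 1233 of all 16413 genes tested (7.51%) were called higher. None of the 5 reached the count level of this filter in any DMSO library, so they passed it only through the cultures in which they were high, and the count is no support by itself. Without the replicate 1 libraries, 5 were called as well. Cdx1, a caudal-type factor of the primitive streak and the later neural tube and somites (ENSMUSG00000024619, chromosome 18, 61018862 to 61036199, minus strand), had 0 counts in all 3 DMSO libraries and 1054, 725 and 563 counts in CH replicates 1 to 3. All CH libraries were far above DMSO, and replicate 1 was the highest. The mean of 27.7 ± 7.49 CPM (SD, n = 3) in CH was at least 287-fold higher than a floor of 3 counts per library in DMSO (higher in 3 of 3 cultures, adjusted p = 4.36e-07 by edgeR with Benjamini-Hochberg adjustment), and at least 224-fold higher without the replicate 1 libraries. Such floors and the intervals of count ratios cover counting error only. Cdx2, which specifies the trophectoderm in the blastocyst and acts in axial elongation after implantation (ENSMUSG00000029646, chromosome 5, 147300805 to 147307270, minus strand), had 0, 4 and 4 counts in DMSO and 2697, 1653 and 1134 in CH. The groups did not overlap, and CH replicate 1 again had the most. From 0.0927 ± 0.0815 CPM in DMSO, Cdx2 reached 64.5 ± 25.0 CPM in CH (SD, n = 3 each), higher by 9.49 on the log2 scale (standard error 0.61, higher in 3 of 3 cultures, adjusted p = 8.9e-07 by edgeR with Benjamini-Hochberg adjustment). That value fell to 8.80 without DMSO replicate 1, in which Cdx2 had no counts, and to 8.46 without all replicate 1 libraries. Cdx4, the X-linked paralogue that is active in the posterior embryo and in early blood formation (ENSMUSG00000031326, chromosome X, 103321398 to 103330592, plus strand), had 1, 1 and 5 counts in DMSO and 638, 354 and 249 in CH. Here too the groups were apart, with CH replicate 1 on top. The log2 fold change was 7.51 (standard error 0.58, higher in 3 of 3 cultures, adjusted p = 3e-06 by edgeR with Benjamini-Hochberg adjustment), and it was 8.78 without DMSO replicate 3 and 6.65 without the replicate 1 libraries.

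Among the 5 Hox genes, Hoxb1 and Hoxa3 were called. Hoxb1, a 3′ gene of the Hoxb cluster that sets the identity of a single hindbrain rhombomere (ENSMUSG00000018973, chromosome 11, 96365752 to 96368256, plus strand), had 0, 0 and 1 counts in DMSO and 117, 68 and 55 in CH. Every CH library was above every DMSO library. The ratio of the summed counts, corrected for depth, was 273 with an exact 95% counting interval from 48.5 to 10810 (higher in 3 of 3 cultures, adjusted p = 3.61e-05 by edgeR with Benjamini-Hochberg adjustment). Measured against the floor in DMSO it was at least 29.4-fold higher. Its fitted log2 fold change of 7.58 rested on the single DMSO count and became 9.45 without DMSO replicate 3 and 6.69 without the replicate 1 libraries. Hoxd1, the paralogue of Hoxb1 in the Hoxd cluster (ENSMUSG00000042448, chromosome 2, 74762980 to 74765142, plus strand), had 0, 11 and 6 counts in DMSO and 18, 14 and 7 in CH. These groups overlapped, DMSO replicate 2 lying above CH replicate 3. Its log2 fold change of 1.28 was not called (adjusted p = 0.238 by edgeR with Benjamini-Hochberg adjustment, standard error 0.83), and it fell to 0.36 without the replicate 1 libraries. Hoxa3, which patterns the third pharyngeal arch and pouch with the thymus and parathyroid (ENSMUSG00000079560, chromosome 6, 52169062 to 52213336, minus strand), had 0 counts in all DMSO libraries and 55, 27 and 14 in CH. It was thus counted in every CH library and in no DMSO library, and was at least 11.6-fold higher in CH (3 of 3 cultures, adjusted p = 0.00109 by edgeR with Benjamini-Hochberg adjustment). This bound was 7.56-fold without CH replicate 1 and 6.99-fold without all replicate 1 libraries. Of its exon length, 27.1% is shared with 5 other genes, 4 of them on the opposite strand, from which unstranded counting cannot separate it. In CH replicates 1 to 3 the opposite-strand transcripts Hoxaas2 and Hoxaas3 had 16, 2 and 0 and 16, 5 and 4 counts, and 5730596B20Rik had 7, 4 and 0, in each case fewer than Hoxa3. Hoxb2, whose product acts in the hindbrain rhombomeres (ENSMUSG00000075588, chromosome 11, 96350525 to 96354012, plus strand), had no more than 2 counts in any of the 18 libraries and was not tested. It shares 27.3% of its exon length with the opposite-strand gene Hoxb3os, which had at most 1 count in a library. Hoxb4, a gene of the posterior hindbrain and of blood stem cells (ENSMUSG00000038692, chromosome 11, 96318267 to 96321638, plus strand), had 0, 2 and 1 counts in DMSO and 5, 3 and 4 in CH. It was too low for the test, and the count ratio was 4.54 (exact 95% counting interval 1.23 to 25.1). In CH, replicate 1 held the highest CPM of all 6 genes that had at least 10 counts there.

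**Figure D1:**
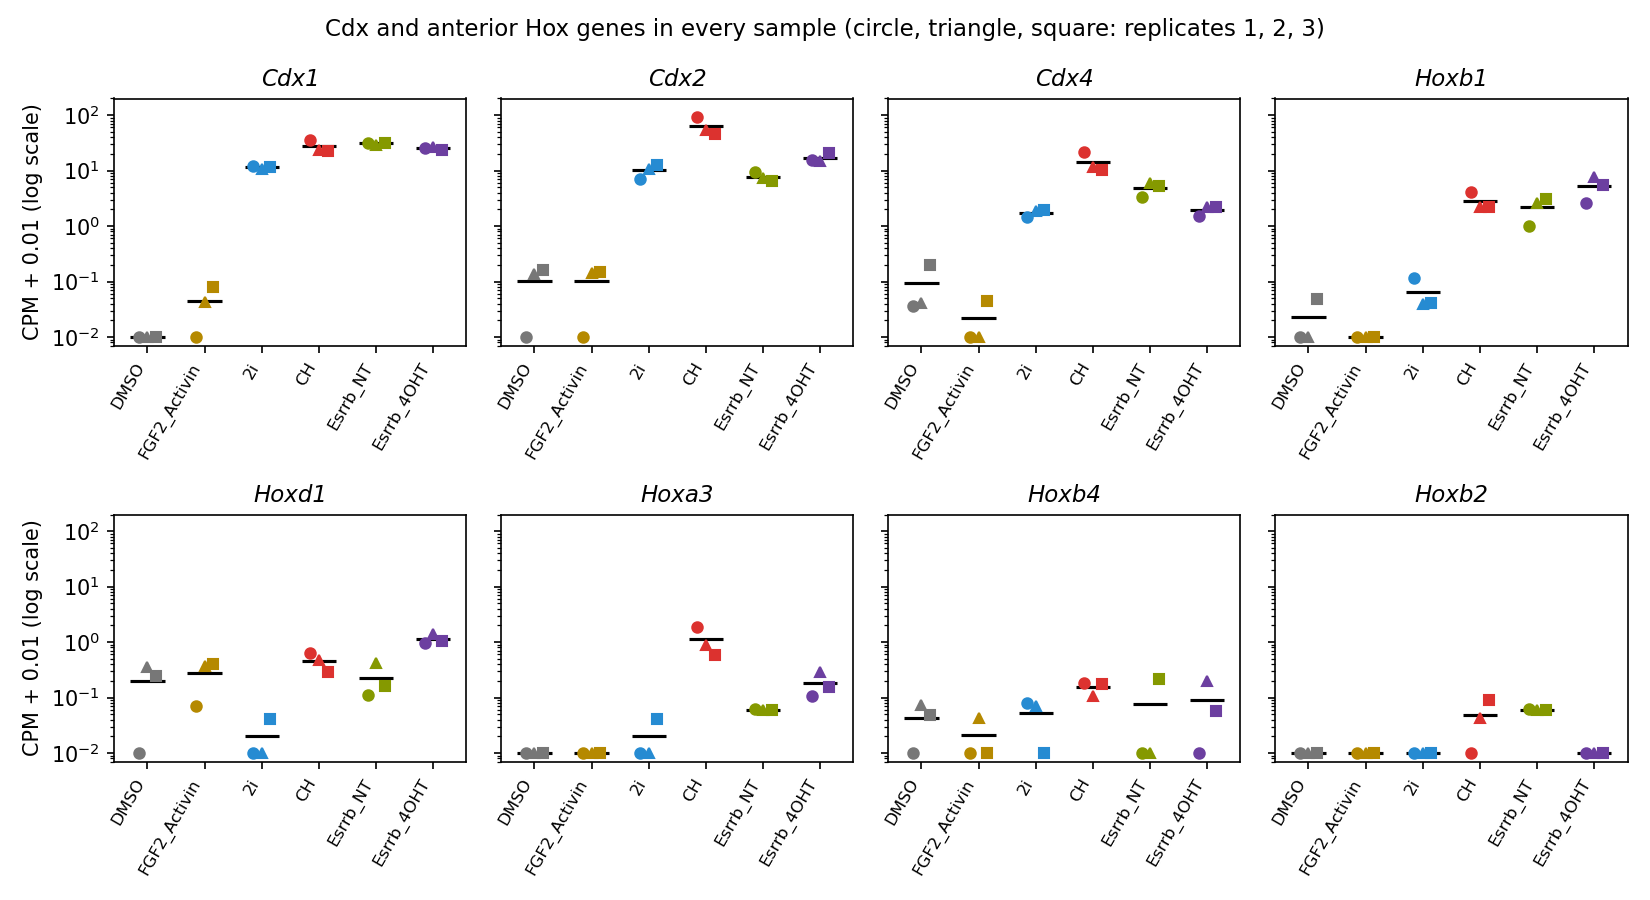
Level of the 8 genes in CPM plus 0.01 on a log axis in each of the 18 libraries, with the group mean as a bar; circles, triangles and squares are replicates 1, 2 and 3. Cdx2 had a mean of 64.5 CPM in CH and 10.2 CPM in 2i, whereas Hoxb2 and Hoxb4 stayed near 0 in all 6 groups.

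The cultures in 2i, the reference for naive ES cells, were compared with DMSO and with FGF2_Activin, which holds factors for the later epiblast state. These comparisons share the 2i libraries, and the first also shares the DMSO libraries with the comparison of CH, so they are not independent. Against DMSO, 3 of the 8 genes were called higher in 2i, beside 1373 of 16413 genes (8.37%), and without the replicate 1 libraries 4 were called in either direction. These 3 were under the level of the filter in every DMSO and FGF2_Activin library, so the same limit holds for the counts against both groups. Cdx1 had 342, 361 and 363 counts in 2i, a mean of 11.4 ± 0.641 CPM (SD, n = 3), and none in DMSO. The 3 libraries of 2i lay close together, and Cdx1 was at least 119-fold higher there (3 of 3 cultures, adjusted p = 5.74e-07 by edgeR with Benjamini-Hochberg adjustment), or at least 107-fold without the replicate 1 libraries. Cdx2 had 203, 357 and 406 counts in 2i, or 10.2 ± 2.84 CPM (SD, n = 3). All were above the DMSO libraries, and in 2i replicate 1 was the lowest, unlike in CH. Cdx2 rose by 6.83 on the log2 scale (standard error 0.61, higher in 3 of 3 cultures, adjusted p = 5.32e-06 by edgeR with Benjamini-Hochberg adjustment), by 6.15 without DMSO replicate 1 and by 6.36 without all replicate 1 libraries. Cdx4 had 41, 62 and 61 counts in 2i, or 1.74 ± 0.257 CPM (SD, n = 3), all above DMSO. Cdx4 rose by 4.45 on the log2 scale (standard error 0.59, higher in 3 of 3 cultures, adjusted p = 9.9e-05 by edgeR with Benjamini-Hochberg adjustment), by 5.72 without DMSO replicate 3 and by 4.12 without the replicate 1 libraries. None of the 5 Hox genes among the 8 was called higher in 2i than in DMSO. Hoxb1 had 3, 1 and 1 counts in 2i and Hoxa3 had 0, 0 and 1, so that both genes were at or under the floor of 3 counts in every library of 2i and of DMSO, and no fold is given. Hoxd1 had 0, 0 and 1 counts in 2i, against 0, 11 and 6 in DMSO. DMSO replicate 1 overlapped the 2i libraries. The count ratio was 16.7 in favour of DMSO (exact 95% counting interval 2.61 to 696, adjusted p = 0.0561 by edgeR with Benjamini-Hochberg adjustment, not called). Without DMSO replicate 1, or without all replicate 1 libraries, Hoxd1 was called lower in 2i (adjusted p = 0.00725 and 0.00149, in a range from 0.00149 to 0.202 over the alternatives, edgeR and DESeq2, with fitted log2 fold changes of -4.33 and -3.93).

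Against FGF2_Activin, the same number, 3 of 8, was called higher in 2i, where 1498 of 16413 genes (9.13%) were called higher. Cdx1 had 0, 1 and 2 counts in FGF2_Activin, below each of the 2i libraries. Its count ratio was 349 (exact 95% counting interval 119 to 1694, higher in 3 of 3 cultures, adjusted p = 6.98e-07 by edgeR with Benjamini-Hochberg adjustment), and against the floor it was at least 116-fold higher. Cdx2 had 0, 4 and 4 counts in FGF2_Activin, the numbers it had in DMSO. Between 2i and FGF2_Activin it differed by 6.80 on the log2 scale (standard error 0.61, higher in 3 of 3 cultures, adjusted p = 5.15e-06 by edgeR with Benjamini-Hochberg adjustment), 6.19 without FGF2_Activin replicate 1 and 6.38 without all replicate 1 libraries. Cdx4 had 0, 0 and 1 counts there, again apart from 2i, with a count ratio of 161 (exact 95% counting interval 28.5 to 6395, higher in 3 of 3 cultures, adjusted p = 3.12e-05 by edgeR with Benjamini-Hochberg adjustment), or at least 17.7-fold against the floor. Hoxd1 had 2, 11 and 11 counts in FGF2_Activin, each more than in any 2i library. At a count ratio of 24.5 in favour of FGF2_Activin (exact 95% counting interval 3.99 to 1006, lower in 3 of 3 cultures of 2i, adjusted p = 0.0252 by edgeR with Benjamini-Hochberg adjustment) it was not called. It was called lower in 2i by DESeq2 (adjusted p = 0.00961) and by edgeR without the replicate 1 libraries (adjusted p = 0.000475), in a range from 0.000475 to 0.0841 over the alternatives, with fitted log2 fold changes of -4.56 and -4.27. With that call, 4 of the 8 genes were called without the replicate 1 libraries.

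2i and CH differ in the Mek inhibitor alone, so this comparison asks what inhibiting Mek changes in cells with Gsk3 inhibited. All 6 genes that passed the filter had a lower mean in 2i, and 4 of them were called lower, against 274 of 16413 genes (1.67%). Of the 4, Hoxb1 and Hoxa3 passed the filter only through CH, so the count owes part of its size to that selection. With the replicate number as a block, 5 were called, while the number of all genes called in either direction went from 326 to 672. Without the replicate 1 libraries, 6 were called, and 768 genes in all. Only 1 was called without 2i replicate 2, and 2 without 2i replicate 3, where 144 genes in all were called each time. Cdx2, with 2697, 1653 and 1134 counts in CH, had 203, 357 and 406 in 2i, so the groups were apart. Its log2 fold change was -2.66 (standard error 0.38, lower in 3 of 3 cultures of 2i, adjusted p = 0.00202 by edgeR with Benjamini-Hochberg adjustment), and -2.10 without the replicate 1 libraries. It was no longer called without 2i replicate 2 (adjusted p = 0.0143 by edgeR), in a fit of the 6 compared samples alone (adjusted p = 0.0113), or in a test against a log2 fold change of 1 (adjusted p = 0.0289, the highest over the alternatives, whose lowest was 5.32e-11), with log2 fold changes of -2.68, -2.67 and -2.66. Cdx4 fell from 638, 354 and 249 counts to 41, 62 and 61, without overlap. For Cdx4 the log2 fold change was -3.06 (standard error 0.41, lower in 3 of 3 cultures of 2i, adjusted p = 0.00143 by edgeR with Benjamini-Hochberg adjustment), and -2.53 without the replicate 1 libraries. Without 2i replicate 2 or 3 the adjusted p was 0.0111 or 0.0107 by edgeR, and in the test against a log2 fold change of 1 it was 0.0158, none of them a call, at log2 fold changes of -3.10, -3.14 and -3.06 (range of adjusted p over the alternatives 2.13e-12 to 0.0158). Cdx1 changed least of the Cdx genes. Its 342, 361 and 363 counts in 2i lay below the 1054, 725 and 563 in CH, and the means were 11.4 ± 0.641 and 27.7 ± 7.49 CPM (SD, n = 3 each). This change, -1.28 on the log2 scale, was not called (adjusted p = 0.0156 by edgeR with Benjamini-Hochberg adjustment, standard error 0.25, lower in 3 of 3 cultures of 2i). It was called with the replicate block (-1.25, adjusted p = 0.00119 by edgeR), by DESeq2 (-1.28, adjusted p = 1.52e-06), without a filter on low counts (-1.28, adjusted p = 0.00696 by edgeR) and without the replicate 1 libraries (-1.07, adjusted p = 4.26e-06 by edgeR). Over all alternatives, which include the test against a log2 fold change of 1, the adjusted p reached 1.0.

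Of the 4 genes called lower in 2i, Hoxb1 had the lowest adjusted p by edgeR and alone kept its call in every alternative. It had 117, 68 and 55 counts in CH and 3, 1 and 1 in 2i, 2.83 ± 1.04 against 0.0557 ± 0.0434 CPM (SD, n = 3 each). The groups did not overlap, and the 2i level was close to that in DMSO. Against the floor in 2i, Hoxb1 was at least 29.3-fold lower there than in CH (3 of 3 cultures of 2i, adjusted p = 0.000853 by edgeR with Benjamini-Hochberg adjustment), and the call was kept in all 14 alternatives. Its fitted log2 fold change of -5.62 rested on 5 counts in 2i and became -6.35 without 2i replicate 1 and -6.00 without all replicate 1 libraries. Hoxa3 had 55, 27 and 14 counts in CH and 0, 0 and 1 in 2i. These libraries were apart as well, with a count ratio of 107 in favour of CH (exact 95% counting interval 18.7 to 4265, lower in 3 of 3 cultures of 2i, adjusted p = 0.00915 by edgeR with Benjamini-Hochberg adjustment). Measured against the floor in 2i it was at least 11.6-fold lower, as against DMSO, and 7.54-fold without CH replicate 1. This call was lost without any single CH library (adjusted p = 0.0134, 0.0271 and 0.0112 without CH replicates 1, 2 and 3 by edgeR) and without any single 2i library (adjusted p = 0.0363, 0.0464 and 0.0533 by edgeR). It was also lost in a fit of the 6 compared samples (adjusted p = 0.0173 by edgeR) and in the test against a log2 fold change of 1 (adjusted p = 0.0503 by edgeR), but kept without the replicate 1 libraries (adjusted p = 0.000399 by edgeR), with fitted log2 fold changes between -8.09 and -5.25 over the alternatives. Hoxd1 had 18, 14 and 7 counts in CH and 0, 0 and 1 in 2i, with no overlap. Its count ratio of 43.4 in favour of CH (exact 95% counting interval 7.35 to 1758, lower in 3 of 3 cultures of 2i, adjusted p = 0.0416 by edgeR with Benjamini-Hochberg adjustment) was not called, but it was called without the replicate 1 libraries (-4.29 on the log2 scale, adjusted p = 0.00187 by edgeR, the lowest in a range up to 0.261 over the alternatives). Hoxb4, at 2, 2 and 0 counts in 2i, was not tested.

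FGF2_Activin and DMSO differ by the added growth factors, without CHIR99021 in either. By edgeR's quasi-likelihood test, 0 of the 8 genes were called between them, where 205 of 16413 genes (1.25%) were called in either direction. DESeq2 called 0 as well, and 1 of the 8, Cdx1, had an unadjusted p under 0.05 in edgeR, with 0 counts in DMSO and 0, 1 and 2 in FGF2_Activin. Cdx2 had 0, 4 and 4 counts in both groups, and Cdx4 had 1, 1 and 5 in DMSO and 0, 0 and 1 in FGF2_Activin, a count ratio of 6.73 in favour of DMSO (exact 95% counting interval 0.865 to 303). With the replicate block, and without the replicate 1 libraries, 0 were called, and the number of all genes called rose to 424 and 499. Of the 8 genes, 5 had at most 3 counts in every DMSO library and 6 in every FGF2_Activin library. Hoxd1 was the gene of this set with the most reads in both groups, with 17 counts summed over DMSO and 24 over FGF2_Activin.

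The Esrrb groups ask what loss of Esrrb does in cells with Gsk3 inhibited. Esrrb itself had 2680, 2146 and 2109 counts in Esrrb_NT and 1211, 1333 and 1250 in Esrrb_4OHT, a log2 fold change of -0.99 (lower in 3 of 3 cultures, adjusted p = 7.44e-05 by edgeR). That change fell short of the minimum for a call. Reads of Esrrb outside the deleted part are counted alike, and no counts per exon were made. How complete the deletion was in these libraries was therefore not tested. Throughout, 'after deletion of Esrrb' stands for Esrrb_4OHT against Esrrb_NT. In this line 5 of the 8 genes passed the filter. Of these, 2 were called higher in Esrrb_4OHT, beside 1909 of 14893 genes (12.8%), and 1 was called lower, beside 576 genes (3.87%). Hoxd1, called higher, passed the filter through Esrrb_4OHT alone, which limits what the count can show. With the replicate block, and also without the replicate 1 libraries, 4 were called. The 3 Cdx genes moved in different directions. Cdx2 had 186, 147 and 126 counts in Esrrb_NT and 326, 316 and 435 in Esrrb_4OHT. Every Esrrb_4OHT library was above every Esrrb_NT library, at 17.1 ± 3.08 against 7.80 ± 1.64 CPM (SD, n = 3 each). On the log2 scale Cdx2 rose by 1.11 (standard error 0.18, higher in 3 of 3 cultures, adjusted p = 0.000789 by edgeR with Benjamini-Hochberg adjustment). It dropped under the threshold of 1 without Esrrb_NT replicate 3 (0.98) or Esrrb_4OHT replicate 3 (0.96), and was 1.35 without the replicate 1 libraries. Cdx4 went the other way, from 65, 120 and 105 counts in Esrrb_NT to 31, 47 and 46 in Esrrb_4OHT. All 3 Esrrb_4OHT libraries were below those of Esrrb_NT, at 1.97 ± 0.415 against 4.91 ± 1.39 CPM (SD, n = 3 each). The change was -1.33 on the log2 scale (standard error 0.26, lower in 3 of 3 cultures, adjusted p = 0.0021 by edgeR with Benjamini-Hochberg adjustment). Without the replicate 1 libraries it was -1.38, and in the test against a log2 fold change of 1 the call was lost (adjusted p = 0.285 by edgeR), as was that of Cdx2 (adjusted p = 0.69 by edgeR). Cdx1, at 608, 584 and 627 counts in Esrrb_NT and 527, 552 and 504 in Esrrb_4OHT, was lower in all 3 libraries without overlap. The difference was small, at -0.31 on the log2 scale (adjusted p = 0.006 by edgeR with Benjamini-Hochberg adjustment, standard error 0.07), short of the minimum for a call, and -0.31 without the replicate 1 libraries. These directions of the Cdx genes were the same with TMM scaling and with DESeq2's size factors.

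Among the Hox genes, Hoxd1 was called higher after deletion of Esrrb. It had 2, 8 and 3 counts in Esrrb_NT and 20, 29 and 22 in Esrrb_4OHT, with no overlap. Hoxd1 averaged 0.219 ± 0.161 CPM in Esrrb_NT and 1.13 ± 0.220 CPM in Esrrb_4OHT (SD, n = 3 each), higher by 2.31 on the log2 scale (standard error 0.42, higher in 3 of 3 cultures, adjusted p = 0.00154 by edgeR with Benjamini-Hochberg adjustment), which was 3.05 without Esrrb_NT replicate 2 and 2.08 without the replicate 1 libraries. In the test against a log2 fold change of 1 its call was lost (adjusted p = 0.0279 by edgeR, the highest over the alternatives, whose lowest was 0.000157). In none of the other 5 groups did a library reach the Hoxd1 level of any Esrrb_4OHT library in CPM. Hoxb1 had 19, 51 and 61 counts in Esrrb_NT and 55, 161 and 116 in Esrrb_4OHT. Replicate 1 was the lowest in both groups, and the groups overlapped, since Esrrb_4OHT replicate 1 lay below Esrrb_NT replicate 3. Each Esrrb_4OHT library was above the Esrrb_NT library of the same number. Without the block, Hoxb1 was not called (1.23 on the log2 scale, adjusted p = 0.0401 by edgeR with Benjamini-Hochberg adjustment, standard error 0.44). With the replicate block it was 1.23 and called (adjusted p = 8.52e-05 by edgeR), as it was without Esrrb_4OHT replicate 1 (1.55, adjusted p = 0.00558) and without the replicate 1 libraries (1.20, adjusted p = 6.37e-06). Over the alternatives, which include the test against a log2 fold change of 1, the adjusted p ranged from 6.37e-06 to 0.852. Hoxa3 had 1, 1 and 1 counts in Esrrb_NT and 2, 6 and 3 in Esrrb_4OHT, too few for the test, and the count ratio was 3.43 (exact 95% counting interval 0.906 to 19.1). Hoxb2 had 1, 1 and 1 counts in Esrrb_NT and 0 in Esrrb_4OHT, and Hoxb4 had 4 counts in all in Esrrb_NT and 5 in Esrrb_4OHT.

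The order of the 6 groups differed between the Cdx paralogues. Cdx1 was highest in Esrrb_NT, CH and Esrrb_4OHT, with means of 30.9, 27.7 and 25.1 CPM whose neighbours overlapped, then came 2i apart from these, then FGF2_Activin and DMSO near 0. For Cdx2 the order was CH, Esrrb_4OHT, 2i, Esrrb_NT and then DMSO with FGF2_Activin, and among the first 4 groups only 2i and Esrrb_NT overlapped. Cdx4 ran from CH through Esrrb_NT to Esrrb_4OHT and 2i, which overlapped, and then to DMSO and FGF2_Activin. Hoxb1 was led by Esrrb_4OHT, CH and Esrrb_NT, each overlapping the next, and the other 3 groups were near 0. Hoxd1 was highest in Esrrb_4OHT, apart from the rest, and every later neighbour in its order (CH, FGF2_Activin, Esrrb_NT, DMSO, 2i) overlapped. Hoxa3 was highest in CH, apart from Esrrb_4OHT, which was apart from Esrrb_NT. Neighbours in the orders of Hoxb2 and Hoxb4 all overlapped. Divided by exon length, the level of Cdx2 in CH was 28.5 ± 11.1 CPM per kb, that of Cdx1 15.8 ± 4.28 and that of Cdx4 7.43 ± 3.29 (SD, n = 3 each). Within each CH library Cdx2 exceeded Cdx1, with ratios per kb of 1.98, 1.76 and 1.56. In 2i these ratios were 0.459, 0.765 and 0.866, so Cdx1 was the more abundant there. They were 0.237, 0.195 and 0.156 in Esrrb_NT and 0.479, 0.443 and 0.668 in Esrrb_4OHT. All CH libraries thus had more Cdx2 than Cdx1 per kb, and all libraries of the other 3 groups with CHIR99021 had less. The ratio of Cdx4 to Cdx2 per kb averaged 0.257 ± 0.0135 in CH, 0.202 ± 0.0298 in 2i and 0.134 ± 0.0327 in Esrrb_4OHT (SD, n = 3 each), and was 0.403, 0.940 and 0.960 in Esrrb_NT. In Esrrb_NT the value of replicate 1 was far below those of the others. No test was made of these ratios.

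Of 33 further Hox genes followed, 16 had at least 10 counts in some library, and 10 were tested in the E14 cultures. Against DMSO, edgeR called 8 of these 10 higher in CH and 0 lower, with a median log2 fold change of 6.18 (4.02 with genes at 0 in DMSO set to their bound), beside -0.00 over all genes tested, of which 7.51% were called higher. Of the 8, all but Hoxc13 were under the level of the filter in every DMSO library and passed only through other cultures, so the number called is no support by itself. The same was true of 3 of the 4 called higher in 2i against DMSO, and of Evx1 in both comparisons. In the Hoxb cluster, Hoxb1 at the 3′ end and Hoxb7, Hoxb8, Hoxb9 and Hoxb13 towards the 5′ end each had at least 10 counts in every CH library. Hoxb2, Hoxb3, Hoxb4, Hoxb5 and Hoxb6, which lie between Hoxb1 and Hoxb7, each had at most 5 counts in any CH library. The opposite-strand gene Hoxb3os overlaps 52.9% of the exon length of Hoxb3, and Hoxb5os 3.59% of that of Hoxb5, and unstranded counting cannot assign reads there. Hoxb9, a gene of the thoracic region, had 7, 6 and 6 counts in DMSO, 160, 190 and 101 in CH and 79, 126 and 90 in 2i, and its log2 fold change between CH and DMSO was 4.68. Hoxb8, also a trunk gene, had 1, 0 and 0 counts in DMSO and 48, 62 and 45 in CH, a count ratio of 176 (exact 95% counting interval 31.1 to 6997, at least 19.1-fold against the floor). Hoxb7 was at least 7.33-fold higher in CH than the floor in DMSO, and Hoxb13, of the tail end, a count ratio of 111 (exact 95% counting interval 19.5 to 4440, at least 12.0-fold against the floor). Hoxc4 had a count ratio of 301 (exact 95% counting interval 53.6 to 11932, at least 32.6-fold) and Hoxc13 a log2 fold change of 2.47. Hoxa5 was at least 7.28-fold and Hoxd9 at least 17.3-fold higher in CH than the floor in DMSO. In CH, replicate 1 carried most of the reads of Hoxd9 (107, 20 and 16 counts), Hoxa5 (39, 12 and 9), Hoxb13 (57, 22 and 19), Hoxb7 (34, 14 and 12), Hoxc13 (132, 29 and 30) and Hoxc4 (137, 64 and 64). Without CH replicate 1 the bounds were 6.79-fold for Hoxd9, 3.95-fold for Hoxa5, 4.92-fold for Hoxb7 and 24.4-fold for Hoxc4. The mean in CH fell from 1.15 to 0.748 CPM for Hoxb13 and from 2.24 to 1.09 CPM for Hoxc13, whose adjusted p of 0.00907 by edgeR was close to the threshold. Hoxa2, Hoxa7, Hoxa9, Hoxc5, Hoxc12 and Hoxd8 had between 2 and 47 counts in each CH library and at most 2 in each DMSO library. CH replicate 1 also carried most reads of Hoxa2 (18, 2 and 2 counts), Hoxc12 (19, 2 and 2), Hoxd8 (47, 11 and 6) and Hoxa9 (17, 3 and 7). Without it their means in CH fell from 0.26 to 0.074, 0.27 to 0.074, 0.74 to 0.30 and 0.32 to 0.19 CPM. Hoxd13, at the 5′ end of its cluster, was the reverse, with 3, 25 and 18 counts in DMSO, 8, 24 and 30 in FGF2_Activin, 5, 0 and 1 in CH and 1, 1 and 1 in 2i, although it was not called between CH and DMSO (log2 fold change -2.77, adjusted p = 0.0434 by edgeR). Of the 5 Evx and other ParaHox genes, Evx1 and Gsx1 had at least 10 counts in a library and only Evx1 was tested. Evx1, a gene of the primitive streak that lies beside the Hoxa cluster, had 0, 0 and 1 counts in DMSO and 630, 664 and 493 in CH, and was called higher with a count ratio of 2030 (exact 95% counting interval 364 to 80206, at least 220-fold against the floor); 2.54% of its exon length overlaps Evx1os. Gsx1 had 4, 7 and 15 counts in DMSO and at most 3 in a CH library.

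Between 2i and DMSO, 4 of the 10 Hox genes tested were called higher and 0 lower by edgeR (median log2 fold change 3.50, or 2.84 with bounds, beside -0.00 over all genes), and Evx1 was called higher. Between 2i and FGF2_Activin, 4 were called higher and 1, Hoxd13, lower (median 2.89, or 2.41 with bounds), and Evx1 was higher. Of the 4, Hoxb8 had at most 3 counts in every library of both groups. Hoxb8, Hoxc4, Hoxd13 and Evx1 were under the level of the filter in every library of the group in which they were lower, so they passed only through other cultures. Between FGF2_Activin and DMSO, neither Evx1 nor any of the 10 was called, 0 by edgeR (median 0.61 beside -0.02). Between 2i and CH, 0 were called higher and 1 lower (median -1.23 beside -0.00). This was Hoxb8, with 2, 3 and 3 counts in 2i, at least 19.0-fold lower than in CH (3 of 3 cultures, adjusted p = 0.000431 by edgeR), and it passed the filter only through CH. Evx1, with 34, 123 and 92 counts in 2i, was called lower too (log2 fold change -3.02, lower in 3 of 3 cultures, adjusted p = 0.00107 by edgeR). Hoxa5, Hoxb7 and Hoxd9 had at most 2 counts in each 2i library and missed the threshold (adjusted p = 0.0117, 0.0165 and 0.0159 by edgeR), with count ratios in favour of CH of 66.8 (exact 95% counting interval 11.5 to 2682) for Hoxa5 and 22.3 (7.26 to 111) for Hoxb7, and 107, 20 and 16 counts in CH against 2, 2 and 2 for Hoxd9. Hoxd13, with a count ratio of 2.23 in favour of CH (exact 95% counting interval 0.475 to 13.8), was not called. Hoxc4 had 137, 64 and 64 counts in CH and 201, 166 and 172 in 2i. Its log2 fold change of 0.89 was not called, nor were the changes of Hoxb9 (-0.76), Hoxb13 (-1.41), Hoxc12 (0.60) and Hoxc13 (0.60), and a p that misses the threshold does not show that their levels were equal. In the Esrrb line 3 of the 33 were tested and 1 was called higher after deletion and 0 lower by edgeR (median 0.54 beside 0.00). Hoxc13 had 16, 7 and 10 counts in Esrrb_NT and 65, 40 and 39 in Esrrb_4OHT (log2 fold change 2.00, higher in 3 of 3 cultures, adjusted p = 0.00135 by edgeR). Evx1 rose from 505, 457 and 460 counts to 2097, 1487 and 1683 (log2 fold change 1.78, higher in 3 of 3 cultures, adjusted p = 1.31e-05 by edgeR). Hoxa13 had at most 1 count in every library outside Esrrb_4OHT and 18, 6 and 12 counts in that group, too few for the test. The paralogues Hoxb1 and Hoxd1 both had a higher mean in Esrrb_4OHT than in Esrrb_NT, with the call of Hoxb1 resting on the block or on leaving out replicate 1.

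**Figure D2:**
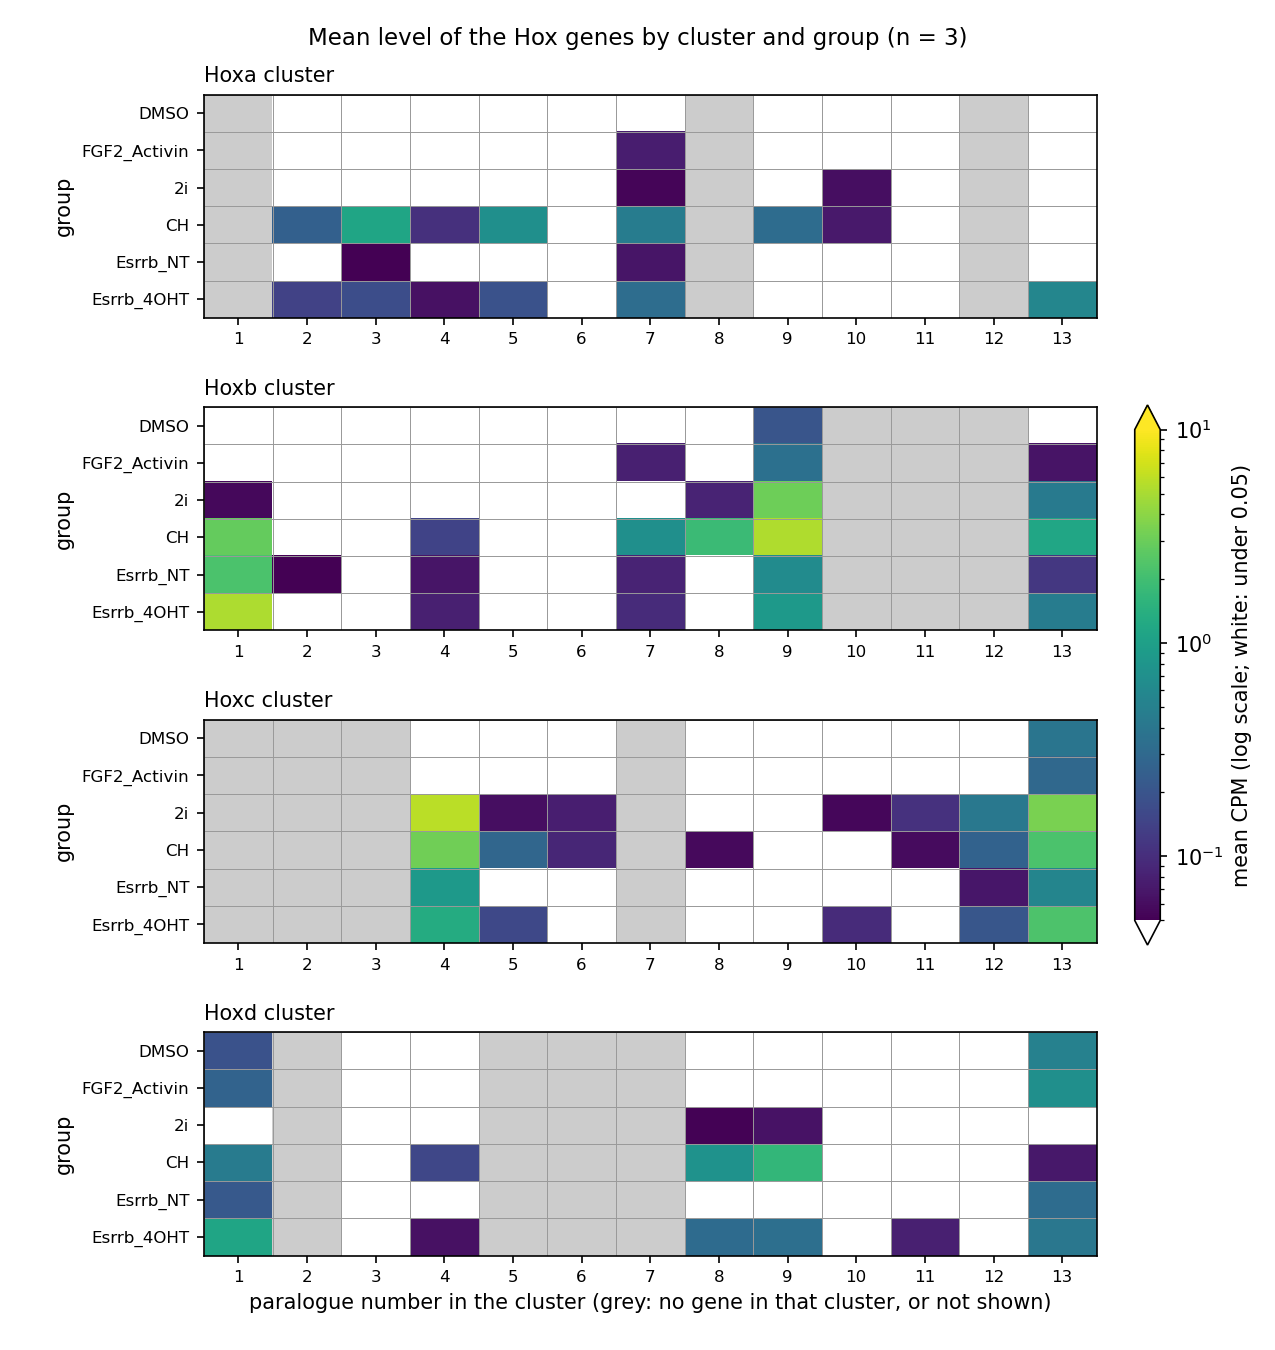
Mean level of the Hox genes in CPM (colour, log scale, n = 3) by cluster, paralogue number and group, with white for means under 0.05 CPM and grey where the cluster has no gene or none is shown. In CH, Hoxb1, Hoxb7, Hoxb8, Hoxb9 and Hoxb13 were coloured while Hoxb2, Hoxb3, Hoxb5 and Hoxb6 stayed white.

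Hox proteins bind DNA together with Pbx and Meis partners. The medians of the gene lists stand beside medians over all genes tested that lay between -0.02 and 0.00 in the 6 comparisons. Of 8 partner genes tested, 1 was called higher and 3 lower in CH than in DMSO (median log2 fold change -0.16), beside 7.51% and 10.2% of all genes. Meis2 rose from 12, 58 and 57 counts to 117, 331 and 284 (log2 fold change 2.62), with replicate 1 low in both groups. Pbx3 fell from 778, 846 and 773 counts to 107, 150 and 103 (log2 fold change -2.60), Pknox2 had a log2 fold change of -1.99 and Pbx4 of -1.58. In 2i against DMSO the partners were 1 higher and 3 lower (median -0.93, beside 8.37% and 14% of all genes), and against FGF2_Activin 2 higher and 3 lower (median -0.65), and between FGF2_Activin and DMSO 0 of 8 were called by edgeR (median -0.29). Meis1, called higher in 2i than in FGF2_Activin, was under the level of the filter in every FGF2_Activin library and passed only through other cultures. Between 2i and CH, Meis3 was the single partner called, lower in 2i at 11, 23 and 13 counts against 109, 119 and 51 (log2 fold change -2.70). After deletion of Esrrb, Meis3 (2.17) and Pknox2 (1.98) were called higher and Meis2 (-1.38) lower (log2 fold changes, median of the 8 partners 0.21).

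Upstream of the Cdx genes stand the Wnt, Fgf and T-box genes of the primitive streak and tail bud. They were listed together with Wnt targets such as Sp5, and 21 of the 22 genes listed were tested. In CH against DMSO, 12 were called higher and 1 lower (median log2 fold change 3.28), beside 7.51% and 10.2% of all genes. Of the 12, Wnt3a, Wnt11 and Sp5 were under the level of the filter in every DMSO library and passed only through other cultures. T, the T-box factor of the streak and notochord, had 18, 11 and 15 counts in DMSO and 19515, 15365 and 10897 in CH (log2 fold change 10.16). Sp5, a direct Wnt target with 1, 3 and 0 counts in DMSO, was at least 2236-fold higher in CH, Nkx1-2, a marker of the caudal epiblast, had a log2 fold change of 7.72, and Wnt3a, the Wnt ligand of the tail bud, had a count ratio of 133 (exact 95% counting interval 36.5 to 1108, at least 28.5-fold against the floor). In 2i against CH, 1 was called higher and 5 lower (median -0.49), 2 of the 5 (Wnt3a and Fgf8) being under that level in every 2i library. T fell to 3265, 2726 and 2527 counts (log2 fold change -2.55), and Fgf8 from 293, 144 and 70 to 4, 7 and 7 (-4.92), its CH mean of 5.89 CPM being 3.79 CPM without replicate 1. Wnt3a (-4.18) and Wnt8a (-3.26) were called lower as well, whereas Sp5 (-0.74) and Nkx1-2 (-0.16) were not called. After deletion of Esrrb, 10 were called higher and 1 lower (median 0.59), beside 12.8% and 3.87% of all genes, and Wnt3a and Fgf8 passed the filter only through Esrrb_4OHT. T rose from 687, 908 and 885 counts to 6440, 9365 and 9321 (log2 fold change 3.23), Fgf8 from 0, 3 and 8 to 153, 240 and 213 (5.62), Wnt3 from 14, 14 and 17 to 724, 650 and 696 (5.40) and Wnt3a from 1, 2 and 2 to 51, 94 and 93, at least 24.7-fold. In the same libraries Cdx2 was called higher as well, whereas Cdx4 was called lower and Cdx1 was not called. In 2i, the list gave 10 higher and 1 lower against DMSO (median 2.03) and 9 higher and 1 lower against FGF2_Activin (median 1.66), and between FGF2_Activin and DMSO 2 were higher and 0 lower by edgeR (median 0.51). Wnt11 and Sp5, called higher in 2i than in DMSO, were under the level of the filter in every DMSO library. Fgf8, the gene called lower against FGF2_Activin, was under it in every 2i library.

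Retinoic acid switches on 3′ Hox genes, and 12 of 16 genes for its synthesis, breakdown, binding and receptors were tested in the E14 cultures. In CH against DMSO, 2 were called higher and 2 lower (median log2 fold change -0.78). Aldh1a2, which makes retinoic acid in the trunk mesoderm, rose from 4, 19 and 13 counts to 156, 102 and 75 (log2 fold change 3.30), and the receptor Rara had 1.10. The binding proteins Crabp2 (-2.89) and Crabp1 (-1.38) were lower. The list gave 2 higher and 4 lower in 2i against DMSO (median -1.09), 1 higher and 4 lower in 2i against FGF2_Activin (median -1.20), and by edgeR 0 calls in 2i against CH (median -0.21) and 0 in FGF2_Activin against DMSO (median -0.16). Rxrg, called lower in 2i against both groups, was under the level of the filter in every 2i library and passed only through other cultures. After deletion of Esrrb 10 were tested, and Rdh10 (1.37) was called higher and Crabp1 (-1.54) and Aldh1a3 (-1.02) lower (median -0.05). Polycomb and trithorax proteins hold Hox clusters silent or active, and all 24 genes listed for them were tested. In CH against DMSO, 0 were higher and 3 were lower, Cbx8 (-2.49), Phf19 (-1.56) and Cbx2 (-1.41), with a median of -0.06, beside 10.2% of all genes called lower. In 2i the list had 0 higher and 2 lower against DMSO (median 0.02), 1 higher and 1 lower against FGF2_Activin (median 0.08) and 0 calls against CH by edgeR (median 0.12), and FGF2_Activin against DMSO had 0 (median -0.07). After deletion of Esrrb, Phf19 (2.05) and Bmi1 (1.57) were called higher and 0 lower (median -0.31).

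Cdx2 is also a trophoblast factor, and 10 other trophoblast markers were measured (Eomes, Tfap2c, Gata3, Elf5, Tead4, Krt7, Hand1, Ascl2, Plet1 and Esx1). Their summed level was 69.3, 58.3 and 41.4 CPM in DMSO and 58.7, 64.6 and 67.7 CPM in CH, so it overlapped between these groups. It was 109, 82.5 and 83.0 CPM in 2i and 42.0, 49.2 and 46.1 CPM in FGF2_Activin. In Esrrb_NT it was 97.4, 95.6 and 95.5 CPM and in Esrrb_4OHT 99.1, 88.2 and 85.5 CPM. The most abundant gene was Ascl2 in DMSO, Tfap2c in CH, Eomes in FGF2_Activin and Tead4 in the other 3 groups, and ES or epiblast cells express these genes too. Of the 7 tested in CH against DMSO, Tfap2c (log2 fold change 2.22) and Tead4 (1.74) were called higher and Eomes (-2.08) and Ascl2 (-1.27) lower (median 0.35). In DMSO, replicate 1 carried most of the reads of Tfap2c (388, 87 and 68 counts) and Tead4 (415, 146 and 104), and without it their means fell from 5.24 to 2.66 CPM and from 6.56 to 4.27 CPM. After deletion of Esrrb, Krt7 (4.30) and Esx1 (1.06) were called higher of 8 tested (median -0.18), and Krt7 passed the filter only through Esrrb_4OHT. The list had 2 higher and 2 lower in 2i against DMSO (median -0.96), 3 and 2 in 2i against FGF2_Activin (median -1.19), 0 in 2i against CH (median 0.26) and 0 in FGF2_Activin against DMSO (median -0.29), the zeros by edgeR.

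Markers of mesoderm, endoderm and neural cells were summed as well. The sum of 8 mesoderm genes (Mesp1, Mesp2, Tbx6, Hand1, Foxf1, Meox1, Tcf15 and Osr1) was 4.13, 6.36 and 5.33 CPM in DMSO and 7.47, 18.7 and 14.5 CPM in CH, and Tcf15 was the most abundant in each group. In 2i it was 2.75, 3.64 and 3.94 CPM, in FGF2_Activin 9.82, 13.9 and 10.6 CPM, in Esrrb_NT 9.70, 12.2 and 13.9 CPM and in Esrrb_4OHT 4.27, 5.69 and 6.21 CPM. Without Tcf15, the remaining genes averaged 2.11 CPM in DMSO and 1.46 CPM in CH, so they were not higher in CH. They averaged 1.61 CPM in Esrrb_NT and 2.62 CPM in Esrrb_4OHT, also opposite to the full sums, which mostly follow Tcf15. Meox1 and Osr1 were at 0 in all CH libraries. Of 3 tested in CH against DMSO, Tcf15 (1.92) was called higher and Mesp2 (-2.19) lower (median 0.17), and after deletion of Esrrb Tcf15 (-1.91) was called lower (median of 2 tested -0.70). In 2i 0 were higher and 1 lower against DMSO (median -0.49) and 0 and 1 against FGF2_Activin (median -1.21), and by edgeR 0 were called against CH (median -0.66) and 0 between FGF2_Activin and DMSO (median 0.47). The 8 endoderm genes (Sox17, Gata4, Gata6, Foxa1, Foxa2, Pdgfra, Dab2 and Afp) summed to between 1.36 and 9.35 CPM over the 18 libraries, with Dab2 or Pdgfra the most abundant. In CH their sums of 4.13, 3.49 and 2.96 CPM lay below the 7.40, 8.55 and 9.35 CPM of DMSO, with Foxa2 (1.59) called higher and Dab2 (-2.13) lower of 6 tested (median -1.18). Between 2i and CH, Foxa2 (-2.80) and Dab2 (-1.73) were called lower (median -1.07), and after deletion of Esrrb Pdgfra (2.16) and Gata4 (1.27) were called higher of 3 tested (median 1.27). In 2i 0 were higher and 2 lower against DMSO (median -1.53) and 0 and 1 against FGF2_Activin (median -0.92), and 0 of 6 were called between FGF2_Activin and DMSO by edgeR (median -0.24). The 8 neural genes (Sox1, Pax6, Nes, Zic1, Olig3, Nkx6-1, Neurog2 and Tubb3) summed to 118, 134 and 173 CPM in DMSO and 23.8, 49.9 and 39.7 CPM in CH. They had 18.8, 50.4 and 50.5 CPM in 2i and 131, 131 and 136 CPM in FGF2_Activin. From 47.9, 50.5 and 51.4 CPM in Esrrb_NT they rose to 210, 213 and 214 CPM in Esrrb_4OHT, where Nes alone made up 205 CPM on average. Without Nes, the mean sum was 19.6 CPM in Esrrb_NT and 7.51 CPM in Esrrb_4OHT. Olig3 (count ratio 40.3, exact 95% counting interval 10.8 to 339, at least 8.67-fold against the floor) was called higher and Nes (-1.94) lower of 6 tested in CH against DMSO (median -1.53), and Nes (-1.18) lower in 2i against CH (median -0.22). After deletion of Esrrb, Nes (2.74) was called higher and Pax6 (-1.70), Olig3 (-1.59) and Tubb3 (-1.56) lower of 4 tested (median -1.57). In 2i 1 was higher and 1 lower against DMSO (median -0.79) and 1 and 2 against FGF2_Activin (median -0.42), and 0 of 6 were called between FGF2_Activin and DMSO by edgeR (median -0.37). Olig3 and Mesp2 in CH against DMSO, Foxa2 in 2i against CH and Olig3 after deletion of Esrrb were under the level of the filter in every library of the lower group, and so passed only through other cultures. The same was true of Mesp2, Gata6 and Olig3 in 2i against DMSO, and of Zic1 and Olig3 in 2i against FGF2_Activin. The part of these cell types in the levels of the Cdx and Hox genes was not tested.

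Across the 18 libraries, the levels on the scale of log2(CPM + 1) were compared with those of the other genes that passed the filter in both lines, as a description, since the libraries share their groups. Cdx1 was most like Cask (r = 0.986), Mcc (r = 0.986) and C1s1 (r = 0.985) over 18 samples. Cdx2 was most like T (r = 0.969), Ptgs1 (r = 0.957) and Eno4 (r = 0.956), and Cdx4 most like Krt23 (r = 0.942), Mob1b (r = 0.933) and Prr18 (r = 0.927). For Hoxb1 the nearest were Styk1 (r = 0.952), Rspo3 (r = 0.947) and Wnt8a (r = 0.946), and for Hoxd1 Col27a1 (r = 0.929), Nudt11 (r = 0.925) and Meis3 (r = 0.919). Among themselves, Cdx2 and Cdx4 (r = 0.907) and Cdx1 and Cdx2 (r = 0.907) were the closest, and Cdx4 and Hoxd1 (r = 0.227) the least alike.

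The promoters of the 8 genes were read for shared letters, although Hoxd1 was not called in CH and Hoxb2 and Hoxb4 were not tested. RefSeq promoters on GRCm38.p6, from 250 bases before to 50 bases after the RefSeq start, were at hand for 6 of the 8 genes. There was no entry for Cdx1 and Hoxb2. The Hoxa3 window lies wholly inside the span given above for this gene (52169062 to 52213336, minus strand). It thus holds no base upstream of that span. Both strands were searched for the TCF/LEF motifs CTTTGAT and CTTTGAA and for the Cdx motif TTTATGG, held by 3.73%, 5.14% and 2.75% of 32851 promoters. None of the 6 windows held any of them, which says only that these letters are not in these windows. The octamer ATGCAAAT, bound by Pou factors, and the CCAAT box were added after the promoters had been seen, and 1.74% and 37.4% of all promoters hold them. The octamer was found in 2 of the 6, Cdx2 and Cdx4, and CCAAT, on either strand, in Cdx2, Cdx4, Hoxb1 and Hoxd1. A match is a description and not a site. The GC content was 57.3% in Cdx2, 50.3% in Cdx4, 59.3% in Hoxb1, 58% in Hoxb4, 69.7% in Hoxd1 and 64% in Hoxa3, against a median of 52.7% over all promoters. The windows of Cdx2 (chr5:147307200-147307499, minus strand), Cdx4 (chrX:103321148-103321447, plus strand), Hoxb1 (chr11:96365508-96365807, plus strand) and Hoxa3 (chr6:52213018-52213317, minus strand, without any of the motifs) are shown because these genes were called between both CH and DMSO and 2i and CH. They are written 5′ to 3′ on the strand of the gene, with the octamer and CCAAT (or ATTGG, its complement) in capitals.
Cdx2: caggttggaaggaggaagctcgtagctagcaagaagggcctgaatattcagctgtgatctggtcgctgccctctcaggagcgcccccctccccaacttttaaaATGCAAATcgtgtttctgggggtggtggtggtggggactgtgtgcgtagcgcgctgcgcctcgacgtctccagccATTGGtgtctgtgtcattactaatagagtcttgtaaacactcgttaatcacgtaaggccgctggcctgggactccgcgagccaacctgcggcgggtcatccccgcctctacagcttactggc
Cdx4: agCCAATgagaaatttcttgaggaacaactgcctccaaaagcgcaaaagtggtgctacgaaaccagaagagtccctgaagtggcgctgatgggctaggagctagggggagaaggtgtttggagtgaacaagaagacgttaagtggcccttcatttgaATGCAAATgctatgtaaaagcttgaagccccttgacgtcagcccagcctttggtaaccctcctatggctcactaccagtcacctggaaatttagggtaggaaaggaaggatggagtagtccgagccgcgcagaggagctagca
Hoxb1: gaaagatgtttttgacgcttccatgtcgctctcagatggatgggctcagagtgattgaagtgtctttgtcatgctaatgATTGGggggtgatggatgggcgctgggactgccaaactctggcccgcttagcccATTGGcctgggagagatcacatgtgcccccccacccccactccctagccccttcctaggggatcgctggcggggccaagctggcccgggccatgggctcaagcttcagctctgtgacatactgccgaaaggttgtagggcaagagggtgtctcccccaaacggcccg
Hoxa3: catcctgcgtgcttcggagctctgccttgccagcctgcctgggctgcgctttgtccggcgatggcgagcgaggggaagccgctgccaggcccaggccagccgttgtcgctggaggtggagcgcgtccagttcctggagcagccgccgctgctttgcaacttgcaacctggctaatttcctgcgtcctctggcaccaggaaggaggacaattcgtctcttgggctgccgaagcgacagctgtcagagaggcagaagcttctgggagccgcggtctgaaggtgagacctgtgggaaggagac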

How the data were processed

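Poly(A) RNA of 18 samples had been sequenced on a NextSeq 500 from directional libraries. TopHat2 alignment to mm10 and strand-blind HTSeq counting per Ensembl gene of GRCm38 were done by the authors, and their deposited counts are raw integers, so genes that overlap cannot be told apart. Symbols and positions came from GENCODE M21, in which 49412 of 49671 identifiers were found. Samples were grouped by their labels. The 12 E14 samples and the 6 Esrrb samples were fitted apart in R 4.3.3 (edgeR 4.0.16, limma 3.58.1), after filterByExpr and TMM scaling. Genes were tested by the quasi-likelihood functions of edgeR with Benjamini-Hochberg adjustment, and called where the adjusted p was below 0.01 and the log2 fold change exceeded 1 in size. Standard errors were computed as the absolute log2 fold change over the square root of F. Total counts per library lay between 19915222 and 37158661 and set the precision at low counts, with a floor of 3 counts per library and exact 95% counting intervals from scipy 1.17.1. Tables were handled with pandas 2.3.3 in Python 3.11.15, and shared transcript sequence of at least 75 bases at 95% identity was sought with BLAST 2.17.0, which found Hoxb3os for Hoxb2 and, for Hoxa3, the 5 genes that overlap it.

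The 8 genes and the gene lists (other Hox, Evx and ParaHox genes, Hox partners, caudal Wnt, Fgf and T-box genes, retinoic acid, Polycomb and trithorax, and markers of ES cells, trophoblast, mesoderm, endoderm and neural cells) were chosen with earlier results of these data known, and 2 genes planned for the lists are not reported here. Beside them the text names each Hox, Evx or ParaHox gene with at least 10 counts in a sample, and up to 4 called genes of each list with the largest change in CH against DMSO, 2i against CH and Esrrb_4OHT against Esrrb_NT with mean counts of 10 or more. It also names the 3 genes most like each of the genes that passed the filter in both fits, out of 14535, and the marker genes. Wnt8a, Sp5, Nkx1-2 and Fgf8 in further comparisons, Wnt11, Meis1, Rxrg, Hoxb2 to Hoxb6, and the overlapping transcripts were named after their values were seen. Same-numbered samples of compared groups had correlated deviations from their group means (r between 0.132 and 0.704 in all comparisons, highest for replicate 1 in each). The replicate number was therefore fitted as a block in an alternative, but not for the gene lists. Every pair of replicates differed beyond sampling noise. The other alternatives were the size factors of DESeq2 1.42.0, its Wald test, no filter, at least 10 counts in every sample, no minimum fold change, edgeR's glmTreat, a fit of the 6 compared samples, CPM without TMM, each library left out, and all replicate 1 libraries left out. The fits were tested on simulated data.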

Additional observations from a re-analysis of the deposited data

How the results depend on the processing

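Over the alternatives, the 5 calls in CH against DMSO and the 3 Cdx calls in 2i against DMSO and against FGF2_Activin were kept in every fit that was run, including each library left out in turn, as was the call of Hoxb1 in 2i against CH. Of the log2 fold changes of the 8 genes under an alternative, 350 kept their direction and their side of the thresholds, 19 lost a call, 13 gained one and 4 changed direction. The 4 that changed direction were of genes not called in FGF2_Activin against DMSO: Cdx2, at 0.03, was -0.65 without DMSO replicate 1, -0.37 without FGF2_Activin replicate 2 and -0.40 without FGF2_Activin replicate 3 (and 0.65 without FGF2_Activin replicate 1), and Hoxd1, at 0.51, was -0.14 without DMSO replicate 1 (and 1.35 without DMSO replicate 2). The number of the 8 genes called in 2i against CH went from 4 to 1 with glmTreat against a log2 fold change of 1, to 2 in a fit of only the 6 samples compared, and to between 1 and 3 with a library left out. In Esrrb_4OHT against Esrrb_NT the number went from 3 to 0 with glmTreat, which also asks that the change exceed the threshold, and lay between 2 and 4 with a library left out. The cause was not tested for the others.

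With the replicate block, 5, 3, 3, 5, 0 and 4 of the 8 genes were called in CH against DMSO, 2i against DMSO, 2i against FGF2_Activin, 2i against CH, FGF2_Activin against DMSO and Esrrb_4OHT against Esrrb_NT. Leaving out the replicate 1 libraries, chosen after seeing the data, gave 5, 4, 4, 6, 0 and 4. A filter of at least 10 counts in every sample left none of the 8 in the E14 fit and was not run for their counts there. DESeq2's size factors moved the median of all genes by no more than 0.0134 in size on the log2 scale. Depth limits Hoxb2, Hoxb4 and, outside CH, Hoxa3.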
